A study of Mus musculus with 28 samples.

Results

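The mitochondrial genes of NADPH supply and peroxide defence, with the partner enzymes of the cytosol and the peroxisome, were followed in primary mouse embryonic fibroblasts (MEFs). They are 10 genes, namely Nnt, Idh2, Sod1, Sod2, Cat, Gpx1, Gpx4, Prdx3, Txn2 and Txnrd2. A probe set, the group of short probes that reads a transcript, was taken where the table that pairs probe sets with genes gave it one of these symbols and no other. This gave 23 of 45037 probe sets, and 10 of the 17097 genes with a probe set of their own. A further 2 probe sets carry the symbol Idh2 beside that of another gene and were left out. For each gene the probe set with the highest mean over the 28 arrays is called the main one, and the others are given beside it.

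Superoxide leaks from the respiratory chain and is turned into H2O2 by superoxide dismutases, Sod2 in the mitochondrial matrix and Sod1 in the cytosol and the intermembrane space. In mitochondria the peroxide is reduced by Prdx3, a peroxiredoxin that is recharged by the thioredoxin Txn2 and its reductase Txnrd2, and by the glutathione peroxidases Gpx1 and Gpx4. Catalase, the product of Cat, breaks H2O2 down in peroxisomes without a cofactor of this kind. Both the thioredoxin and the glutathione arm draw their electrons from NADPH, which Nnt, a proton-driven transhydrogenase of the inner membrane, and Idh2, an isocitrate dehydrogenase of the matrix, regenerate. Nnt is known to vary between mouse strains, as C57BL/6J mice carry a deletion inside the gene that most other strains lack.

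MEFs at passage 2 came from 13.5-day embryos of 3 genotypes, WT, p53-/- and p66-/-. p53 is a stress-activated transcription factor, and p66, the longest protein of the Shc1 gene, is a redox protein that makes H2O2 in mitochondria. Per genotype, 4 arrays hold untreated cells and 4 hold cells kept for 4 h in 400 μM H2O2. WT and p66-/- cells also gave 2 arrays each after 4 h in 0.25 μg/ml of doxorubicin (Doxo), a drug that breaks DNA and cycles electrons to oxygen. All 28 arrays carry the strain label C57Bl/6, without a substrain, whereas the study's methods name another strain background for the array experiments, and no comparison between strains could be made. The methods count the replicates as separate preparations of cells, and how many embryos stand behind a preparation is not given in the sources used here. All values are log2 signals after RMA, a normalization of arrays, and the words rose and fell are kept for genes where limma gave a Benjamini-Hochberg adjusted p under 0.05 over all 45037 probe sets.

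Some arrays went against their labels or stood apart. Of 1650 probe sets that changed after H2O2 in WT cells, 1617 (98%) moved the opposite way in p53-/- cells as labelled, and 46 (2.79%) did so in p66-/- cells. Atf3, a stress-induced transcription factor, read 8.88 ± 0.36 (SD, n = 4) in the p53-/- arrays labelled untreated and 5.98 ± 0.31 (SD, n = 4) in those labelled H2O2. In WT cells it read 5.79 ± 0.15 (SD, n = 4) untreated and 8.65 ± 0.39 (SD, n = 4) after H2O2. Values of p53-/- cells are therefore given by their labels, and exchanging the labels turns the sign of each of their changes after H2O2. By number and treatment the arrays were taken as 3 sets. The spike-in control lys read 5.27 in replicates 1 and 2, 3.59 in replicates 3 and 4 and 4.19 in the Doxo arrays (means over 12, 12 and 4 arrays). Replicates 1 and 2 stood apart from the others (4.991 to 6.055). The range of the Doxo arrays (4.036 to 4.414) met that of replicates 3 and 4 (3.24 to 4.042). The genotypes could not be checked on the deleted genes. No probe set carries the symbol Trp53 alone, and Shc1 also encodes shorter proteins than p66. Which of these transcripts the main probe set of Shc1 reads was not examined. Its means untreated, after H2O2 and after Doxo were 7.851, 7.855 and 8.225 in WT and 8.387, 8.222 and 8.745 in p66-/- cells. All 8 fibroblast markers lay above the lowest 40% of values in every group, and their summed log2 level ranged from 13.44 to 14.26. That of 4 leukocyte markers ranged more widely, from 7.59 to 11.19 in WT, 6.73 to 10.90 in p53-/- and 9.67 to 11.08 in p66-/- arrays, and that of 4 muscle markers from 8.11 to 10.67 over all groups. Of 4 endothelial markers 1 lay above the lowest 40%.

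Of the 23 probe sets, 21 lay above the lowest 40% of values. The 2 below it, the second probe sets of Idh2 and Sod1, hardly rose over background and carry little information. Main probe sets of 9 genes had means over the arrays between 9.22 and 11.82, and that of Txnrd2 a mean of 6.07. Values of different probe sets cannot be ranked against each other, since their probes bind with unequal strength.

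**Figure D1:**
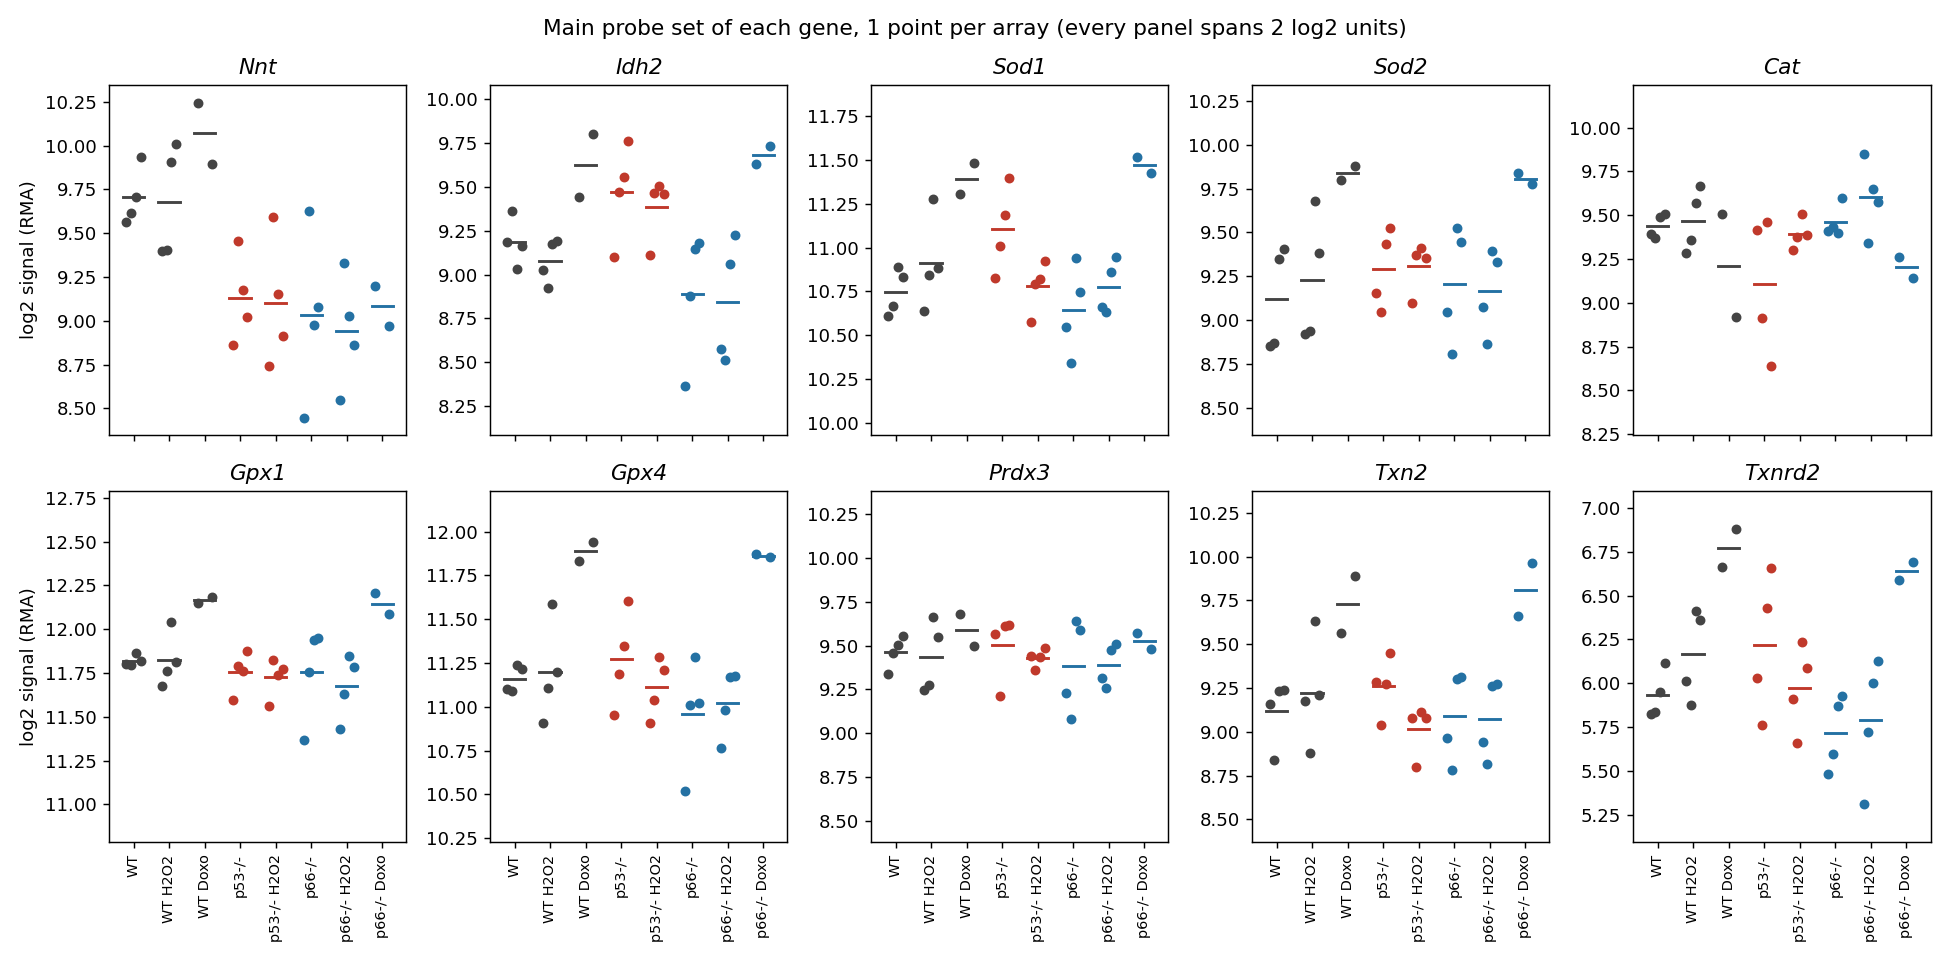
Log2 signal of the main probe set of each of the 10 genes, with 1 point per array and a bar at each group's mean, for WT (grey), p53-/- (red) and p66-/- (blue) cells, with p53-/- treatments as labelled; every panel spans the same range. The Doxo arrays of Sod1, Sod2, Gpx1, Gpx4, Txn2 and Txnrd2 lie above the untreated arrays of their genotype, and Nnt is lower in most arrays of both mutants than in WT.

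After H2O2 no call was made for the transcripts of the enzymes that dispose of it. None of the 23 probe sets changed in WT cells, where 3.66% of all probe sets did. None reached even an unadjusted p of 0.05 there, while 12.4% of all probe sets did so in limma. None changed in p53-/- cells (4.56% of all probe sets changed), and none in p66-/- cells, where 0.0178% of all did. Unadjusted p-values under 0.05 were found for 2 and 0 of the 23 probe sets in these genotypes, against 17.2% and 4.41% of all. The median difference of the 23 probe sets was 0.05 in WT, -0.09 in p53-/- and -0.02 in p66-/- cells, beside 0.02, -0.04 and -0.01 over all probe sets. In WT cells the main probe sets ranged from -0.11 for Idh2 to 0.23 for Txnrd2.

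The intervals show what could have been missed. For Prdx3 the difference after H2O2 in WT cells was -0.03 (95% interval -0.28 to 0.22), and for Gpx1 it was 0.00 (-0.23 to 0.23), so that changes of 1.5-fold, or 0.58 on the log2 scale, lay outside. For Txnrd2 the interval ran from -0.15 to 0.62 and did not exclude a change of that size. A second probe set of Txnrd2 was called in replicates 3 and 4 alone (0.60, adjusted p = 0.016 in limma), with 4.90 and 5.23 untreated and 5.75 and 5.58 after H2O2, and differed by 0.19 (adjusted p = 0.86) over all 4 replicates. None of the 23 probe sets responded differently to H2O2 in p66-/- and WT cells, and over all probe sets 1 did (0.00222%). At the same threshold none of the 23 responded differently in p53-/- cells as labelled, where 10.8% of all probe sets did. With the p53-/- labels exchanged, 0.02% of all probe sets did, so that the share of 10.8% depends on the labels.

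Same-number pairs of arrays give the signs. All 4 pairs were lower after H2O2 in p53-/- cells as labelled for 10 of the 23 probe sets, the main one of Sod1, both of Gpx4, all 3 of Txn2 and all 4 of Txnrd2, and higher for 1, of Sod2. The second probe set of Sod1, near background, was higher in 3 of 4 pairs. Probe sets of Gpx4, Txn2 and Txnrd2 followed their main one (r = 0.834 to 0.975) and are not separate. Over all probe sets 18.7% were lower and 13.5% higher in all 4 pairs. In WT cells all 4 pairs were higher for 3 probe sets, the main ones of Sod1 and Txnrd2 and the second of Cat, and lower for 1 (15% and 11.7% of all). The same counts were 3 and 1 in p66-/- cells (9.31% and 11% of all).

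Sod1 and the third probe set of Sod2 had the 2 unadjusted p-values under 0.05, both in p53-/- cells. In p53-/- cells the main probe set of Sod1 read 10.83, 11.01, 11.19 and 11.40 in replicates 1 to 4 labelled untreated and 10.57, 10.79, 10.82 and 10.93 in those labelled H2O2. Each H2O2 array lay below the untreated array of its own number. The difference was -0.33 ± 0.14 (SE, adjusted p = 0.22). A fit with replicate numbers as blocks, which the pairing of these arrays allows, called it (adjusted p = 0.023) with 9.17% of all probe sets. The sign turned to 0.33 with the p53-/- labels exchanged, and the WT and p66-/- differences were 0.16 and 0.13, both not called.

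The third probe set of Sod2 gave other values than the main one, with which it correlated at r = 0.198 over the 28 arrays. It read 5.54, 5.35, 5.64 and 5.80 in untreated WT cells and 4.93, 5.18, 5.39 and 5.45 after H2O2. The p66-/- cells read 5.52, 5.17, 5.78 and 5.92 untreated and 5.26, 4.77, 5.53 and 5.37 after H2O2. All 4 pairs of both genotypes were lower after H2O2, although neither difference was called (-0.34, adjusted p = 0.53, and -0.37, adjusted p = 1 in limma). In p53-/- cells as labelled all 4 pairs were higher, by 0.47 on average, and the difference between the p53-/- and the WT response was 0.81 ± 0.27 (SE, adjusted p = 0.053). It is the 1 probe set of the 23 that passed the methods' threshold, an unadjusted p under 0.05 with 1.5-fold, which 13.3% of all probe sets passed. With the replicate block, which called 17.3% of all, this difference was called (adjusted p = 0.0096), and with the p53-/- labels exchanged it was -0.13 (adjusted p = 1). The main probe set of Sod2 differed by 0.11 in WT and -0.04 in p66-/- cells after H2O2.

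After Doxo most of these transcripts were higher. In WT cells 14 of the 23 probe sets rose and 0 fell, where 21.9% of all probe sets rose and 13% fell. By main probe sets these were 5 of the 10 genes, Sod1, Sod2, Gpx4, Txn2 and Txnrd2. In p66-/- cells 14 of 23 rose and 0 fell, beside 26.6% of all probe sets that rose and 14.1% that fell, and by main probe sets 7 of the 10 genes rose, the same 5 with Idh2 and Gpx1. The median difference of the 23 probe sets was 0.60 in WT and 0.57 in p66-/- cells, against 0.13 and 0.15 over all probe sets. In bulk RNA more transcript per cell and a shift towards cells that hold more of it cannot be told apart.

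The Doxo arrays were taken as an array set of their own that holds no untreated array, and drug and array set cannot be told apart in these values. Fibroblast markers were lower after Doxo, with a median difference of -0.48 in WT (1 of 8 fell) and -0.55 in p66-/- cells (3 of 8 fell). Of 4 markers each, the median was 0.38 in both genotypes for epithelium (1 rose in each), 0.54 and 0.68 for muscle (1 rose in p66-/- cells) and 0.81 and 0.03 for leukocytes (1 fell in p66-/- cells). For endothelial and neural markers it lay between 0.07 and 0.22, none called. The part of these in the result was not tested. Set against untreated replicates 1 and 2 alone, references chosen after seeing the data, 13 probe sets rose in WT and 16 in p66-/- cells, beside 21.2% and 30.6% of all. Against untreated replicates 3 and 4 alone, 15 and 11 rose and 0 and 1 fell, beside 19.1% and 16.1% of all that rose. Leaving out 1 Doxo array changed the calls. In WT cells limma called 10 probe sets without Doxo replicate 1 and 2 without replicate 2, in place of 14, and in p66-/- cells 11 and 6. The lone Doxo array left is then assumed to vary like the other groups. An exact permutation test of 4 arrays against 2 cannot give a two-sided p under 0.0667.

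**Figure D2:**
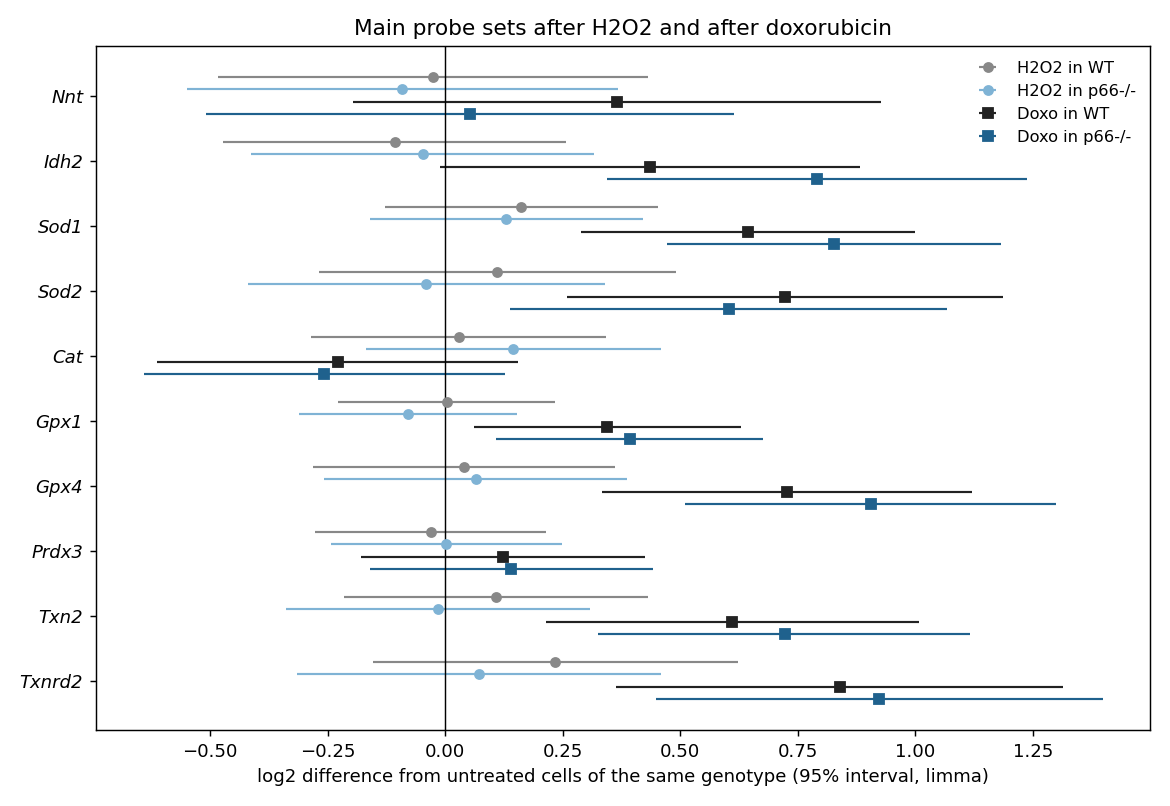
Log2 difference between treated and untreated cells of the same genotype for the main probe set of each gene, after H2O2 (circles) and Doxo (squares) in WT and p66-/- cells, with 95% intervals from limma. Intervals after H2O2 all span 0, whereas those after Doxo lie above 0 in both genotypes for Sod1, Sod2, Gpx1, Gpx4, Txn2 and Txnrd2.

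Among the main probe sets Txnrd2, of the thioredoxin arm, gave the largest rise in both genotypes, in p66-/- cells close to that of Gpx4. Txnrd2, the reductase that recharges mitochondrial thioredoxin, read 5.82, 5.83, 5.95 and 6.11 in untreated WT cells and 6.66 and 6.88 after Doxo. In cells without p66 it read 5.48, 5.59, 5.87 and 5.93 untreated and 6.59 and 6.69 after Doxo. The groups did not overlap in either genotype, as held, with Doxo higher, for 39.2% of all probe sets in WT and 39.2% in p66-/- cells. The rise was 1.79-fold in WT (log2 0.84 ± 0.23 SE, adjusted p = 0.0073) and 1.90-fold in p66-/- cells (log2 0.92 ± 0.23, adjusted p = 0.0032). Its other 3 probe sets had log2 differences from 0.65 to 1.26 in WT and from 0.56 to 1.23 in p66-/- cells, of which 1 was not called in p66-/- cells (0.56, adjusted p = 0.056).

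Txn2, the thioredoxin itself, read 9.16, 8.84, 9.23 and 9.24 in untreated and 9.56 and 9.89 in Doxo-treated WT cells. The p66-/- values were 8.96, 8.78, 9.30 and 9.31 against 9.66 and 9.96. The Doxo arrays were again all above, with rises of 0.61 ± 0.19 (SE, adjusted p = 0.017) and 0.72 ± 0.19 (adjusted p = 0.0050). All 3 probe sets of Txn2 rose in both genotypes. Prdx3, the peroxiredoxin that Txn2 serves, was not called. It read 9.34, 9.46, 9.51 and 9.55 in untreated WT cells and 9.68 and 9.49 after Doxo, an overlap, with a difference of 0.12 (95% interval -0.18 to 0.42, adjusted p = 0.52). For p66-/- cells the difference was 0.14 (95% interval -0.16 to 0.44). It was called against untreated replicates 1 and 2 alone (0.37, adjusted p = 0.030) and turned to -0.09 (adjusted p = 0.53) against replicates 3 and 4 alone. With the replicate block, which called 51.2% and 55.6% of all probe sets, both genotypes were called, at 0.24 and 0.26 (adjusted p = 0.049 and 0.033 in limma), although the numbers do not pair the Doxo arrays with the untreated ones.

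Of the glutathione peroxidases, Gpx4, which reduces lipid peroxides in membranes, read 11.10, 11.09, 11.24 and 11.21 in untreated WT cells and 11.83 and 11.94 after Doxo. The p66-/- values were 10.52, 11.01, 11.28 and 11.02 untreated and 11.87 and 11.85 after Doxo. The rises were 1.66-fold (log2 0.73 ± 0.19 SE, adjusted p = 0.0054) and 1.87-fold (log2 0.90 ± 0.19, adjusted p = 0.00082). The second probe set of Gpx4 rose by 0.89 and 1.02, and both probe sets correlated at r = 0.975 over the 28 arrays. Gpx1, which reduces H2O2 in the cytosol and the matrix, has a single probe set here. It read 11.80, 11.79, 11.86 and 11.82 in untreated and 12.15 and 12.18 in Doxo-treated WT cells, without overlap. The differences were 0.35 ± 0.14 (SE) in WT, just short of the threshold (adjusted p = 0.052), and 0.39 ± 0.14 in p66-/- cells (adjusted p = 0.026). The p66-/- call was lost against untreated replicates 3 and 4 alone (0.20, adjusted p = 0.16). In WT cells Gpx1 was called against that reference (0.32, adjusted p = 0.029 in limma) and not against replicates 1 and 2 alone (0.37, adjusted p = 0.068). The replicate block (0.44, adjusted p = 0.0017) and further quantile normalization (0.36, adjusted p = 0.046) called it in WT cells too.

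Both superoxide dismutases rose. Sod1 read 10.61, 10.66, 10.89 and 10.83 in untreated WT cells and 11.30 and 11.48 after Doxo, a rise of 0.64 ± 0.17 (SE, adjusted p = 0.0061). The p66-/- values were 10.55, 10.34, 10.94 and 10.75 untreated and 11.52 and 11.43 after Doxo, a rise of 0.83 ± 0.17 (adjusted p = 0.00073). Sod2 read 8.85, 8.87, 9.35 and 9.41 in untreated and 9.80 and 9.88 in Doxo-treated WT cells. Its untreated arrays split by array set, with replicates 3 and 4 the higher, and the Doxo arrays lay above both. The rise was 0.72 ± 0.22 (SE, adjusted p = 0.016), and 0.98 or 0.46 against either array set alone. For p66-/- cells the rise was 0.60 ± 0.22 (adjusted p = 0.035), and 0.88 or 0.32 against either set. The third probe set of Sod2 was not called in either genotype (-0.19 and -0.47), and was the 1 that fell in p66-/- cells against untreated replicates 3 and 4 alone (-0.72, adjusted p = 0.017).

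Cat was not called and had negative differences. It read 9.39, 9.37, 9.49 and 9.51 in untreated WT cells and 9.51 and 8.92 after Doxo, and 9.41, 9.43, 9.40 and 9.60 against 9.26 and 9.14 in p66-/- cells. Both p66-/- Doxo arrays lay below the untreated ones, as held for 18.8% of all probe sets, and the WT groups overlapped. Neither difference was called (-0.23, 95% interval -0.61 to 0.16, and -0.26, 95% interval -0.64 to 0.13), and the second probe set gave -0.18 and -0.14.

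Of the suppliers of NADPH, the main probe set of Idh2 was called in p66-/- cells and that of Nnt in neither genotype. Idh2 read 9.19, 9.36, 9.03 and 9.16 in untreated WT cells and 9.45 and 9.80 after Doxo, a difference of 0.44 ± 0.21 that was not called (SE, adjusted p = 0.12). The p66-/- values were 8.36, 8.88, 9.15 and 9.18 untreated and 9.63 and 9.73 after Doxo, a rise of 0.79 ± 0.21 (adjusted p = 0.0061). Of the WT settings, the block (0.58, adjusted p = 0.0052), blocks within genotypes (0.445, adjusted p = 0.017) and the reference of replicates 3 and 4 alone (0.53, adjusted p = 0.0070) brought a call. The second probe set of Idh2, one of the 2 near background, rose in both genotypes (0.41, adjusted p = 0.030 in WT, and 0.39, adjusted p = 0.032 in p66-/- cells), without overlap. Against untreated replicates 3 and 4 alone it was called in neither (adjusted p = 0.069 and 0.17). Nnt differed by 0.37 (95% interval -0.20 to 0.93) after Doxo in WT and by 0.05 (-0.51 to 0.61) in p66-/- cells, with overlapping groups. Blocks within genotypes called both probe sets of Nnt in WT cells (0.564 and 0.558, adjusted p = 0.039 and 0.030 in limma). The numbers do not pair the Doxo arrays with the untreated ones, however.

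The response to Doxo did not differ between p66-/- and WT cells for any of the 23 probe sets, and for 0 of all 45037 in limma (0 of 23 and 2.39% of all at an unadjusted p under 0.05). The difference between the responses was 0.08 for Txnrd2 (95% interval -0.59 to 0.76), 0.18 for Gpx4 (-0.38 to 0.74) and 0.35 for Idh2 (-0.28 to 0.99). These intervals are wide, so that like responses are not shown.

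The promoters of 3 of these genes are printed to set side by side 2 genes that rose after Doxo, Sod1 and Txnrd2, and 1 that did not, Cat. They are the 250 bases before the RefSeq start of the gene in GRCm38.p6, read along the gene's own strand, at chr16:90220512-90220761 (plus strand) for Sod1, chr16:18426167-18426416 (plus strand) for Txnrd2 and chr2:103485154-103485403 (minus strand) for Cat. Capitals mark the match to the core of the antioxidant response element, which Nrf2 binds.
Sod1: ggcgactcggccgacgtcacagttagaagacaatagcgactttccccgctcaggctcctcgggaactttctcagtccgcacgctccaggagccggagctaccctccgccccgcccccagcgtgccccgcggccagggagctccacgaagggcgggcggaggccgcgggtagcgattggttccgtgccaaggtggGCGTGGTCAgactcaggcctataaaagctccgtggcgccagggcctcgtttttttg
Txnrd2: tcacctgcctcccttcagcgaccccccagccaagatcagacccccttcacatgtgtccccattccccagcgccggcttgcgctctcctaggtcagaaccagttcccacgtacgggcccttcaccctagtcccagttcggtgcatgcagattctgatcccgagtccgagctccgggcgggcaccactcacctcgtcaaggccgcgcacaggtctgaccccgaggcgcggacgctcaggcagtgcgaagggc
Cat: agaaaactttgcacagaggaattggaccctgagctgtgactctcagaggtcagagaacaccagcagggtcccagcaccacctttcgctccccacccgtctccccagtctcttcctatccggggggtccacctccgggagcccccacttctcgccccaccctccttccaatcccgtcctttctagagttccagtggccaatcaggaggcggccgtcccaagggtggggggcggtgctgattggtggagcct

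All 3 stretches are rich in G and C, at 66.4% for Sod1, 65.6% for Txnrd2 and 62% for Cat, and hold 26, 19 and 9 CG pairs. RefSeq windows of 300 bases around the start were at hand for 9 of the 10 genes, 12 windows in all, and Nnt is named only. Searched on both strands, TGACNNNGC, the core of the antioxidant response element, was found in 1 of these 12 windows, that of Sod1, where it reads TGACCACGC on the strand opposite the gene and ends 48 bases before the start. Of all 32851 windows of this length 12.4% hold it. GTAAACA, a motif of FoxO factors, was found in 0 of the 12 and in 3.65% of all windows. The 2 motifs share no stretch here, and a match or its absence describes these letters only.

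Between genotypes the largest difference among the 10 main probe sets was that of Nnt, in both mutants. Its main probe set read 9.56, 9.61, 9.71 and 9.94 in untreated WT cells in replicates 1 to 4, and 9.40, 9.40, 9.91 and 10.01 after H2O2. In p53-/- cells it read 8.86, 9.46, 9.18 and 9.02 as labelled untreated and 8.74, 9.59, 9.15 and 8.91 as labelled H2O2. The p66-/- values were 8.45, 9.63, 8.98 and 9.08 untreated and 8.55, 9.33, 9.03 and 8.86 after H2O2. The mutants lay below WT in replicates 1, 3 and 4, and replicate 2 of both mutants read close to WT with and without H2O2. After Doxo, WT cells read 10.24 and 9.90 and p66-/- cells 9.20 and 8.97, inside a single array set and without overlap. Of all probe sets 12.3% were lower in p66-/- cells after Doxo without overlap.

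Averaged over untreated and H2O2 arrays, the difference of Nnt was -0.58 ± 0.16 (SE) in p53-/- cells, 0.67 of the WT level, with an unadjusted p of 0.0012 and an adjusted p of 0.075 in limma. For p66-/- cells it was -0.71 ± 0.16 (SE), 0.61 of the WT level, with an unadjusted p of 0.00016 and an adjusted p of 0.17. Neither passed the threshold, and none of the 23 probe sets did, where 1.04% of all probe sets did in p53-/- and 0.00444% in p66-/- cells. By p-value Nnt stood at place 694 of 45037 in p53-/- and 36 of 45037 in p66-/- cells. In untreated cells alone the differences were -0.58 (adjusted p = 0.16) and -0.67 (adjusted p = 1), where 4.75% and 0% of all probe sets passed and none of the 23 did. After H2O2 they were -0.58 (adjusted p = 0.11) and -0.74 (adjusted p = 0.18), with 8.25% and 0.178% of all probe sets and again none of the 23. After Doxo the p66-/- difference was -0.99 ± 0.31 (SE, 95% interval -1.64 to -0.34, adjusted p = 1), where 0% of all passed and none of the 23. At the methods' threshold, an unadjusted p under 0.05 with 1.5-fold, 2 of the 23 probe sets passed in p66-/- cells, both of Nnt. This held untreated, after H2O2, after Doxo and on average, where 0.129%, 2.46%, 0.111% and 0.691% of all passed.

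The second probe set of Nnt, which correlated with the main one at r = 0.924 over 28 arrays, differed by -0.39 in p53-/- and -0.73 in p66-/- cells. Its values were 8.40, 8.60, 8.79 and 8.84 in untreated WT, 7.996, 8.60, 8.12 and 8.44 in p53-/- and 7.48, 8.49, 7.85 and 7.90 in p66-/- cells. Replicate 2 of both mutants again lay nearest to WT. Exchanging the p53-/- labels left the difference of the main probe set at -0.61 untreated and -0.55 after H2O2. The shares of all probe sets called between p53-/- and WT cells were then 0.0844% untreated and 0.502% after H2O2.

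Between genotypes the replicate number pairs the arrays only in part. The best match in WT had the same number for 3 of 4 untreated arrays of either mutant. After H2O2 this held for 3 of 4 in p53-/- and 2 of 4 in p66-/- cells. A fit with the numbers as blocks called Nnt in p53-/- cells (adjusted p = 0.023 in limma, with 4.23% of all). It did not call Nnt in p66-/- cells (adjusted p = 0.0502, with 0.109% of all called). This fit counts untreated and H2O2 arrays of 1 genotype and number as separate samples. The difference was larger in one array set. In replicates 3 and 4 alone it was -0.82 (adjusted p = 0.0015) in p53-/- and -0.91 (adjusted p = 0.0030) in p66-/- cells, and in replicates 1 and 2 alone -0.33 (adjusted p = 0.58) and -0.51 (adjusted p = 0.50). In replicates 3 and 4 alone, 1.33% and 0.426% of all probe sets were called. Untreated and H2O2 arrays of the same number are not separate samples of a genotype, since they differed by at most 0.21, 0.14 and 0.30 in WT, p53-/- and p66-/- cells while the numbers differed by up to 0.49, 0.72 and 0.98. With 1 mean per number, a setting chosen after seeing the data, the 4 p66-/- values all lay below the 4 WT values. The highest p66-/- mean was 9.477 and the lowest WT mean 9.48, nearly the same. A two-sided exact permutation test, which did not use the replicate numbers, gave p = 0.029, the smallest that 4 against 4 allow. The p53-/- values overlapped those of WT (exact permutation p = 0.086). The second probe set overlapped in both mutants. In limma on these means the main probe set of Nnt had an adjusted p of 0.88 in p66-/- and 0.55 in p53-/- cells. Over all 45037 probe sets this fit called 0 higher and 0 lower in p66-/- cells, and 9 higher and 65 lower in p53-/- cells.

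**Figure D3:**
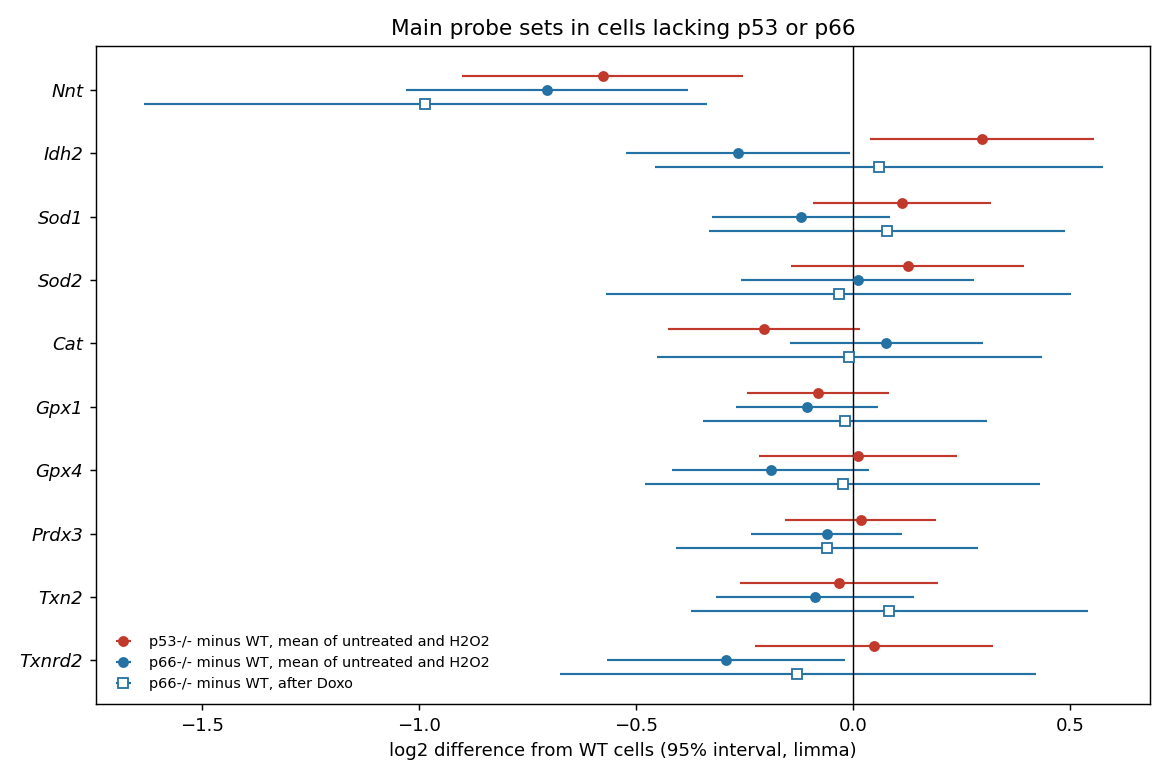
Log2 difference between mutant and WT cells for the main probe set of each gene, with 95% intervals from limma, as the mean of untreated and H2O2 arrays in p53-/- (red) and p66-/- cells (filled blue) and after Doxo in p66-/- cells (open squares). Nnt is the gene with the lowest values, and its 3 intervals lie below 0.

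Over the 28 arrays the gene most like Nnt among 17096 others was Wdfy1, an endosomal protein that binds phosphoinositides, on chromosome 1 (r = 0.839). It was followed by Oma1, a mitochondrial protease (r = 0.702), Acadl, a fatty acid dehydrogenase of mitochondria (r = 0.693), Pick1 (r = 0.685) and Fuca2 (r = 0.684). These are descriptions over arrays that share genotypes and preparations. Wdfy1 read 8.96, 8.28, 8.78 and 9.004 in untreated WT cells, 5.62, 7.87, 5.72 and 5.95 in p53-/- and 6.75, 8.82, 6.12 and 6.03 in p66-/- cells. After H2O2 replicate 2 of both mutants again stood high, at 8.28 in p53-/- as labelled and 8.32 in p66-/- cells, against 6.04 to 6.46 in the other mutant arrays. Averaged over both conditions Wdfy1 fell by 2.03 on the log2 scale in p53-/- cells (adjusted p = 0.018 in limma), and in p66-/- cells its difference was -1.73 (adjusted p = 0.21).

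Among the 10 genes that flank Nnt on chromosome 13, 5 on either side in the RefSeq order, none was called in either mutant. 4 of them, 1700003P14Rik, Fgf10, Hmgcs1 and Nim1k, lay in the lowest 40% of values, where a change could hardly be seen. Paip1, which regulates translation through the poly(A)-binding protein and is the next gene to Nnt on one side, is singled out after its values were seen. Its main probe set had the highest SD among the flanking genes, 1.98 over the 28 arrays. It read 9.26, 8.86, 3.60 and 3.96 in untreated WT cells, 7.27, 8.83, 7.52 and 7.14 in p53-/- and 6.96, 9.21, 6.87 and 7.55 in p66-/- cells. The 2 WT Doxo arrays read 3.38 and 3.37 and the p66-/- ones 6.23 and 6.16. WT replicates 1 and 2 and replicate 2 of both mutants thus lay together near 9, WT replicates 3 and 4 and WT Doxo arrays near 4 or below, and the other mutant arrays between. The second probe set of Paip1 did not follow this order, with 6.999, 6.37, 6.53 and 6.48 in untreated WT cells. The part of such differences between preparations in the Nnt result was not tested, nor was that of the leukocyte markers, whose median difference from WT was 0.73 in p66-/- and -0.18 in p53-/- cells.

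**Figure D4:**
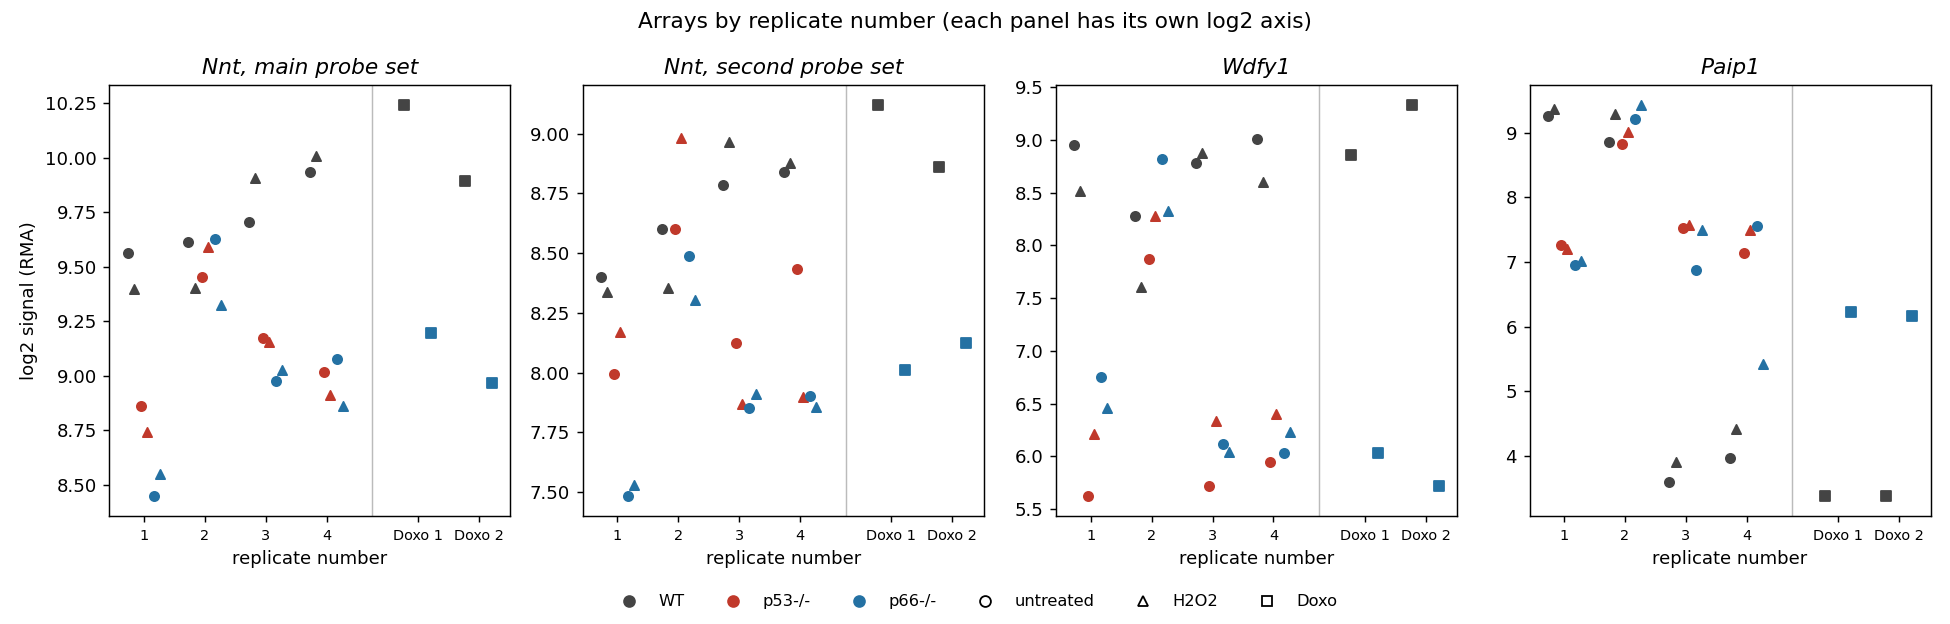
Log2 signal of both probe sets of Nnt, of Wdfy1 and of the main probe set of Paip1 against the replicate number, with Doxo arrays at the right, by genotype (colour) and treatment (symbol). Replicate 2 of p53-/- and p66-/- cells reads near WT for Nnt and Wdfy1, and WT replicates 1 and 2 read over 4 log2 units above WT replicates 3 and 4 for Paip1.

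The other 9 genes differed less between genotypes. Idh2 differed by 0.30 ± 0.12 (SE) in p53-/- and by -0.27 ± 0.12 in p66-/- cells, neither of them called (adjusted p = 0.30 and 0.59 in limma). Its p66-/- values differed between the array sets, at 8.36 and 8.88 in untreated replicates 1 and 2 and 9.15 and 9.18 in 3 and 4. In WT cells replicates 1 and 2 lay above 3 and 4 untreated and below them after H2O2. Txnrd2 differed by -0.29 ± 0.13 (SE, adjusted p = 0.57) in p66-/- and 0.05 in p53-/- cells. Cat differed by -0.21 in p53-/- and 0.08 in p66-/- cells, with 8.64 in replicate 4 and 8.91 in replicate 2 of the p53-/- arrays labelled untreated as its lowest values there. For Sod1, Sod2, Gpx1, Gpx4, Prdx3 and Txn2 the differences lay between -0.19 and 0.13 in both mutants. With the replicate block 2 of the 23 probe sets were called in untreated p53-/- cells, where it called 9.55% of all, Sod1 (0.36, adjusted p = 0.013) and the second probe set of Idh2 (0.31, adjusted p = 0.045), and with the labels exchanged the difference of Sod1 was 0.03. After H2O2 as labelled the block called 1 probe set each of Sod2 (0.54, adjusted p = 0.017) and Txn2 (-0.26, adjusted p = 0.035), and 15.3% of all. With the labels exchanged, in the fit without blocks, these differences were 0.07 and -0.13. That of the second probe set of Idh2 in untreated cells was then 0.16.

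The genes around this system were followed in 4 lists. Their counts stand beside 1.86% of all probe sets that rose after H2O2 in WT cells, and beside 21.9% that rose and 13% that fell after Doxo in WT and 26.6% and 14.1% in p66-/- cells. Of 12 measured partners in mitochondrial NADPH and redox balance (15 listed), none changed after H2O2 in WT cells, while 5 rose and 4 fell after Doxo, in WT as in p66-/- cells. Msrb2, which repairs oxidized methionine in mitochondria, rose by 0.995 and 1.13 (log2, WT and p66-/-), and Ccs, the copper chaperone of Sod1, by 1.08 and 1.10. Oxr1, a guard against oxidative damage, fell by 2.35 on the log2 scale in WT and fell by 2.65 in p66-/- cells. Me2 of the same list fell as well, with log2 differences of -0.58 in WT and -0.90 in p66-/- cells. Glrx5, a glutaredoxin of iron-sulfur cluster assembly, rose by 0.74 and 0.80 (adjusted p = 0.0015 and 0.00065 in limma). The median difference of the list was 0.05 in WT and 0.10 in p66-/- cells, against 0.13 and 0.15 over all probe sets.

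Of 17 measured peroxide enzymes and their partners in other compartments (19 listed), 3 rose after H2O2 in WT cells, beside 1.86% of all probe sets, and none fell. No peroxiredoxin or glutathione peroxidase was among the 3. These were Gss, the last enzyme of glutathione synthesis (0.56, adjusted p = 0.035), Srxn1, which revives overoxidized peroxiredoxins (0.96, adjusted p = 0.045), and Txnip, an inhibitor of thioredoxin (0.71, adjusted p = 0.046 in limma). None of the 17 changed in p66-/- cells, where 0.0178% of all probe sets did. The response to H2O2 differed between p66-/- and WT cells for none of the 17 either, so that no difference between these genotypes is shown. Txnip in p53-/- cells fell by 0.95 on the log2 scale as labelled, and the reading with exchanged labels turns this sign. After Doxo 8 rose and 2 fell in both genotypes, beside 21.9% (WT) and 26.6% (p66-/-) of all that rose and 13% and 14.1% that fell. Among them Gpx3, the secreted glutathione peroxidase, rose by 1.10 in WT and 1.67 in p66-/- cells and Gss by 1.04 and 0.93, while Gpx8 of the endoplasmic reticulum fell by 0.72 and fell by 0.68. Txn1, a thioredoxin of this list, fell too, with log2 differences of -0.29 in WT and -0.36 in p66-/- cells. Gpx8 also fell by 0.35 in p53-/- against WT cells (mean of both conditions, adjusted p = 0.0045), and Gss fell by 0.44 (adjusted p = 0.042).

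Of 6 measured enzymes of cytosolic NADPH supply (7 listed), none changed after H2O2, and 1 in WT and 4 in p66-/- cells rose after Doxo, beside 21.9% and 26.6% of all probe sets. The response to Doxo differed between p66-/- and WT cells for none of the 6, even at an unadjusted p under 0.05 in limma. Pgd, of the pentose phosphate pathway, rose by 0.67 in WT and 0.77 in p66-/- cells. Of 5 measured genes of mitochondrial content (6 listed), 2 rose and 1 fell after Doxo in both genotypes, counts too small to set against these shares. Lonp1, a matrix protease, rose by 0.68 and 0.80 and Vdac1, a pore of the outer membrane, by 0.32 and 0.44, whereas Tfam, which packages and transcribes mitochondrial DNA, fell by 0.93 and fell by 1.001 on the log2 scale.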

How the data were processed

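RNA of 28 MEF cultures was read on Affymetrix PM array strips. Per the submitters' processing notes, RMA was run in Partek 6.5 by the authors, and the deposited values are log2 signals between 1.953 and 13.468, with array medians of 4.353 to 4.464. RMA brings all arrays to a common distribution, so that values are relative to the array as a whole. The number of arrays, not sequencing depth, limits the precision. No value column was left unmapped (0).

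After 104 control probe sets were dropped, 45037 were tested, of which 28898 carried a single symbol, 551 several and 15588 none. limma 3.58.1 in R 4.3.3 fitted 1 mean for each of 8 groups over all arrays, with 20 residual degrees of freedom, and p-values were adjusted after Benjamini and Hochberg. It was tested on simulated data. The 15 comparisons set treated against untreated cells, mutants against WT, and the responses against each other. Groups follow the sample labels. Same-number H2O2 and untreated arrays deviated together from their group means (r = 0.527 to 0.785), which was taken to pair them. Same-number arrays of different genotypes did so too (0.271 to 0.74), but the same number was the best match in only 2 or 3 of 4 cases. Doxo arrays did not deviate with the untreated ones (-0.089 to 0.047).

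The members and lists were chosen with earlier results of these data known. Named beside them were up to 4 called genes per list and comparison with the lowest adjusted p, the 10 flanking genes of Nnt and the 5 genes most correlated with it. Alternatives were the methods' t-test, a fold threshold of 1.5, the compared groups alone, the lowest 40% left out, another quantile normalization, replicate blocks, array sets, exchanged p53-/- labels and leaving out arrays. Means per number and Doxo against 1 array set were added after seeing the data. Promoters were matched by symbol.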

Additional observations from a re-analysis of the deposited data

Results flagged for a closer look

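Among 60 groups of 4 arrays tested over the 10 main probe sets, 3 held an array that stood apart from the others by more of the group's range than Dixon's limit at 95% allows, and chance alone flags about 1 group in 20. Idh2 read 9.112 in replicate 1 of the p53-/- arrays labelled H2O2, against 9.462 in the nearest other. Prdx3 read 9.211 in replicate 2 of the p53-/- arrays labelled untreated, against 9.566. Txn2 read 8.799 in replicate 2 of the p53-/- arrays labelled H2O2, against 9.076. All 3 were the lowest of their group.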

How the results depend on the processing

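The calls of members depend on the spread that is assumed. Of the 23 probe sets, limma called 14 after Doxo in either genotype and 0 in the other comparisons. Single genes were followed only for called main probe sets and for Nnt between genotypes. None of these differences changed sign under the alternatives run, but calls were lost and gained. Apart from leaving out arrays, 13 of these results lost a call, 11 gained one and 147 stayed the same. After adjustment the methods' t-test called 8 after Doxo in WT and 2 in p66-/- cells (12 and 10 at the methods' own threshold of p and fold). Fits to the compared groups alone called 9 after Doxo in p66-/- cells, 1 in p53-/- against WT cells after H2O2 and 1 for the p53-/- H2O2 response. With the lowest 40% left out, 1 was called for that response. At an unadjusted p and 1.5-fold, 2 were called in p66-/- against WT cells untreated, 2 after H2O2, 2 after Doxo and 2 on average, both those of Nnt, and 1 for the p53-/- H2O2 response. The replicate block called 1 after H2O2 in p53-/- cells, 2 in p53-/- against WT cells untreated, 2 after H2O2, 1 on average and 3 for the response, and moved the count of members by over 1.5 times in no other comparison. Over all probe sets it raised the calls from 1650 to 3131 after H2O2 in WT, 2054 to 4129 in p53-/- and 8 to 46 in p66-/- cells, and on average from 470 to 1906 in p53-/- and 2 to 49 in p66-/- against WT cells. Untreated and after H2O2 they went from 2141 to 4302 and 3716 to 6902 in p53-/-, and after H2O2 from 80 to 616 in p66-/- against WT cells, and from 4866 to 7781 for the p53-/- response. Blocks within genotypes called 2 after H2O2 in p53-/- cells and 3 for the response. The array set as a term called 2 after H2O2 in p53-/- cells, 2, 1 and 1 in p53-/- against WT cells untreated, after H2O2 and on average, and 4 for the response. Replicates 3 and 4 alone called 1 after H2O2 in WT, 1 in p53-/- cells, 5, 4 and 3 in p53-/- and 1, 3 and 2 in p66-/- against WT cells (untreated, after H2O2, on average), and 5 for the p53-/- response, whereas replicates 1 and 2 alone called 0. Leaving out single arrays gave 2 to 13 calls after Doxo in WT (2 without WT Doxo replicate 2, 9 without WT untreated replicate 2), 6 to 15 in p66-/- cells, 0 to 1 for the p53-/- response and 0 to 1 in either mutant on average, where Nnt was called without H2O2 replicate 2 of that mutant. The cause of these shifts was not tested. Signals near background, as for the second probe sets of Idh2 and Sod1, limit what can be read from them.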
